A study of Homo sapiens with 12 samples.

Results

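The effect of hairpins against H2AZ2 was read from 8 of the 12 arrays of the study, each of which measured total RNA of SK-mel147, an established human melanoma cell line. The H2AZ2 arrays were the 4 titled H2AZ2 RNAi, 2 with the hairpin sh_37 and 2 with sh_38. The controls were the 4 titled control RNAi, 2 with a scrambled hairpin and 2 with a hairpin against luciferase, an insect gene that human cells lack. All cells, controls included, had been infected with lentivirus carrying a short hairpin RNA and were grown in DMEM with serum; the labels give neither the time after infection nor how infected cells were selected. The other 4 arrays, labelled as H2AZ1 hairpins (sh_83 and sh_84), entered the tests of H2AZ2 hairpins only through the estimate of the spread. In those labelled sh_84 the H2AZ1 transcript went against the label, with a log2 difference from control of -0.12 (limma adjusted p = 0.859), while sh_83 gave -2.38. The RNA was hybridised to Affymetrix Human Gene 1.0 ST arrays, which report each gene on a log2 scale, so that a difference of 1 is a doubling. The labels do not say whether the arrays of a hairpin came from separate infections. The p-values therefore reflect only how much these arrays vary, and that variation may be technical. The members of interest are the genes that moved the same way with both hairpins, and the comparison covered 18417 genes. The study title names proliferation and drug sensitivity of melanoma as its subject.

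H2A.Z is a variant of histone H2A that is exchanged into nucleosomes by the SRCAP and EP400 remodelling complexes and is found above all around transcription start sites and enhancers. Vertebrates carry a pair of H2A.Z genes, H2AZ1 and H2AZ2, whose proteins H2A.Z.1 and H2A.Z.2 are nearly identical. Unlike the canonical histones, which are made from clustered genes during S phase, H2A.Z is made from single genes throughout the cell cycle.

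The arrays were alike in overall level, with medians between 7.0 and 7.10 on the log2 scale. The mean level of 192 small nucleolar RNAs, short stable nuclear RNAs, ran from 6.68 to 7.17 over the 8 arrays and was lowest in replicate 2 of sh_38 (6.68) and replicate 2 of scrambled (6.73). The root mean square difference between the arrays of a hairpin was 0.271 for scrambled, 0.243 for sh_38, 0.214 for luciferase and 0.151 for sh_37. Of the markers used to check the cell type, the neural crest factors SOX10 (10.62), PAX3 (8.74) and MITF (8.29) had signals at percentiles between 59.3 and 91.4 of all genes. The pigment genes PMEL (5.72), MLANA (5.09), TYR (4.84) and TYRP1 (4.76) had percentiles among all genes between 6.6 and 16.8, so these defining markers of pigmented melanocytes were near the bottom of the scale in this line. Signals of different probe sets are not comparable as levels, so these percentiles only describe the arrays.

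The targeted transcript was examined first. H2AZ2 read 10.94 and 10.99 with scrambled, 11.03 and 11.05 with luciferase, 9.94 and 9.83 with sh_37 and 10.43 and 10.35 with sh_38. All 4 arrays with H2AZ2 hairpins lay below all 4 controls, and both sh_37 arrays lay below both sh_38 arrays. The transcript thus stood at 54.9% of its control level (log2 change -0.87, SE 0.13, limma adjusted p = 0.00482). The fall was larger with sh_37 than with sh_38 (sh_37 minus sh_38 -0.50, limma adjusted p = 0.00763), and it kept its call in each of the 8 fits that left out 1 array. Without both luciferase arrays it was -0.83 and no longer passed (limma adjusted p = 0.0654). H2AZ1, the sister gene, read 12.30 and 12.17 with scrambled, 12.12 and 12.38 with luciferase, 11.97 and 12.09 with sh_37 and 12.11 and 12.09 with sh_38. Its 4 arrays also lay below the controls, by 0.18 on average, but the test over both hairpins is uninformative for this gene: its SE of 0.43 takes in the sh_83 and sh_84 arrays, where H2AZ1 differs widely. In the fit by hairpin the SE was 0.09 and neither hairpin passed (-0.21 with sh_37 and -0.15 with sh_38; limma adjusted p = 0.19 and 0.396).

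Of the 18417 genes, 159 rose (0.863% of genes) and 450 fell (2.44%) with H2AZ2 hairpins by limma at an adjusted p under 0.05; after the arrays were quantile normalised again the split was 193 and 325. Genes that also had all 4 H2AZ2 arrays on 1 side of all 4 controls numbered 155 up (0.842%) and 447 down (2.43%). These 602 genes are the ones said below to rise or fall. Their signals were higher than usual: the median control level was 8.36 for the 155, 9.36 for the 447 and 7.69 for all genes. The lists below were not matched for level. Without the requirement of the test, 763 genes (4.14%) lay above and 1374 (7.46%) below the controls in this sense. In the fit by hairpin, which tests sh_37 and sh_38 apart, 125 genes (0.679%) rose and 325 (1.76%) fell with both; the hairpins share their control arrays there. Taken alone, sh_37 gave 1053 rises (5.72%) and 1324 falls (7.19%), and sh_38 gave 235 (1.28%) and 613 (3.33%). Of the 602 genes, 99 rising and 300 falling ones passed with each hairpin. A gene said below to rise or fall may therefore not pass with 1 of the hairpins alone, and the text below says so only for some. Others that missed with sh_38 alone were CCNE2, CENPE, RBL1, COL5A1 and CNN2 (limma adjusted p = 0.0649, 0.0702, 0.107, 0.0926 and 0.0746). MSH6 and HPRT1 also missed with sh_38 alone (limma adjusted p = 0.0588 and 0.0727). TCF7L2 and SHMT1 missed with sh_37 alone (limma adjusted p = 0.0797 and 0.065). Scrambled against luciferase, 2 arrays against 2 in the fit by hairpin and so of less power than the comparisons above, called 0 genes by limma after adjustment, against 1384 (7.51%) whose unadjusted p was under 0.05.

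A consistent change is here the smaller in size of the sh_37 and sh_38 differences from the control mean, so that a gene ranks high only if both hairpins moved it. Its median over the 602 genes was 0.40 for those that rose and -0.42 for those that fell. Only 3 genes rose and 4 fell by over 1 on this measure. The sh_37 difference was the larger for 119 of the 155 rising and 310 of the 447 falling genes, and sh_37 was also the hairpin with the lower H2AZ2 level. A direct test of sh_37 against sh_38 called 749 of all genes (4.07%) higher and 406 (2.2%) lower with sh_37, and 95 of the 602 were among these.

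How many of these genes passed depended on single arrays. Without replicate 1 of scrambled, 18 of the 155 and 48 of the 447 were still called, and without replicate 2 of luciferase 71 and 159. The sizes of the changes moved little: the median over the 155 was 0.52 with all arrays and 0.51 without replicate 1 of scrambled, and over the 447 it was -0.53 and -0.51. Their median SE went from 0.108 to 0.126, and the estimated correlation between arrays of a hairpin from 0.157 to 0.324. The counts were 69 and 223 without replicate 2 of sh_37, 84 and 308 when replicate 1 of that hairpin was dropped, 74 and 238 for replicate 1 of luciferase, and 116 and 287 without replicate 2 of sh_38. Leaving out both arrays of a control hairpin kept 4 and 35 genes without scrambled and 7 and 7 without luciferase. With the small nucleolar RNA level as a covariate, an alternative chosen after the data were seen, 87 and 212 stayed called. In all, 66 genes, 18 up and 48 down, were called in each of the 8 fits without 1 array, and a gene said below to be called in every fit is among them. Every other gene of the 602 lost its call without replicate 1 of scrambled. The fit gives all genes the same correlation between arrays of a hairpin, so for genes whose hairpins differ more, such as TAGLN, the SE is too small. It also counts sh_83 and sh_84 as 1 target, so a gene that differs between them has a larger SE. For E2F8 (-0.635 with sh_83 and 0.206 with sh_84) the SE was 0.192, beside 0.118 in the fit by hairpin.

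**Figure D1:**
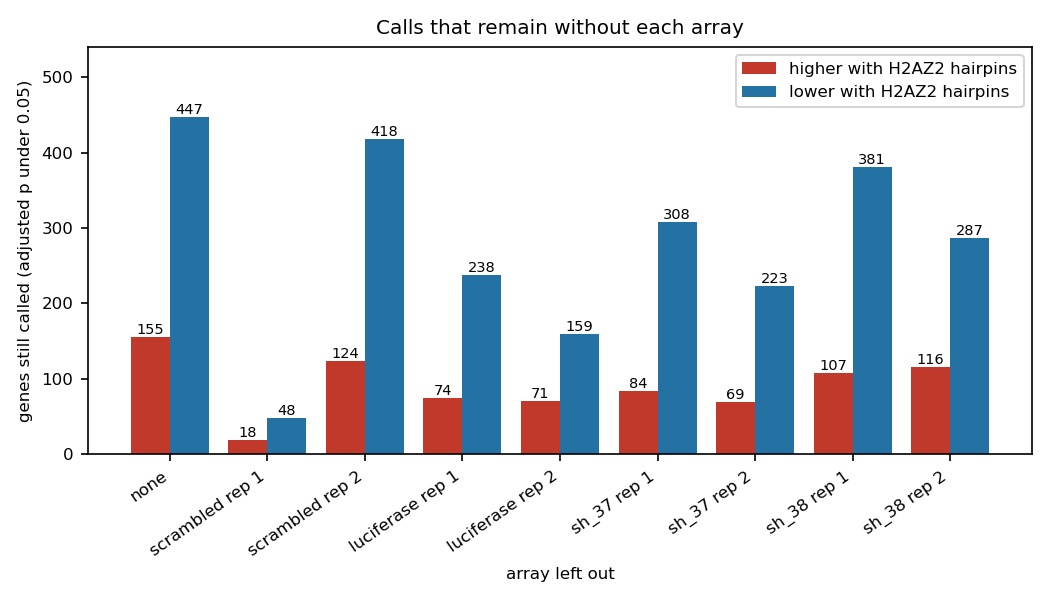
Bars give the number of the 155 rising and 447 falling genes that still passed (vertical axis, genes with a limma adjusted p under 0.05) when no array or the named array was left out (horizontal axis). Without scrambled replicate 1 the bars stand at 18 and 48, below those for any other array.

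The first 4 of the 15 genes with the largest consistent rise encode secreted proteins. EDIL3, a secreted matrix protein that binds integrins, read 8.55 and 8.41 with scrambled, 9.53 and 9.23 with luciferase, 11.35 and 11.32 with sh_37 and 10.92 and 10.87 with sh_38. Its lowest H2AZ2 array was above its highest control, although the luciferase arrays were higher than the scrambled ones. It was 4.55-fold higher (log2 change 2.19, SE 0.29, limma adjusted p = 0.00474). CRISPLD2, a secreted glycoprotein, read 6.48 and 6.71 with scrambled, 7.17 and 6.95 with luciferase, 9.0 and 8.61 with sh_37 and 8.20 and 8.25 with sh_38, a 3.22-fold rise (log2 change 1.69, SE 0.21, limma adjusted p = 0.00359). The rise was larger with sh_37 (sh_37 minus sh_38 0.59, limma adjusted p = 0.039). CPA4, a secreted carboxypeptidase, read 8.03 and 8.03 with scrambled, 8.41 and 8.47 with luciferase, 10.33 and 10.40 with sh_37 and 9.31 and 9.33 with sh_38, with the sh_37 arrays about 1 log2 unit above the sh_38 arrays (sh_37 minus sh_38 1.05, limma adjusted p = 5.75e-05). LRRC17, a secreted protein with leucine-rich repeats, read 5.89 and 5.85 with scrambled, 6.38 and 6.22 with luciferase, 7.39 and 7.52 with sh_37 and 7.09 and 6.99 with sh_38; its groups did not overlap (log2 change 1.16, SE 0.17, limma adjusted p = 0.00482). These 4 genes were called in every fit.

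Structural and adhesion genes were also among the 15. NEFL, the light chain of neurofilaments, read 9.20 and 9.18 with scrambled, 9.69 and 9.48 with luciferase, 10.74 and 10.69 with sh_37 and 10.37 and 10.17 with sh_38, with every H2AZ2 array above every control (log2 change 1.11, SE 0.19, limma adjusted p = 0.00957). CDH6, a cadherin, changed by 0.99 and CCN3, a matricellular protein, by 0.81. TAGLN encodes transgelin, which binds actin in smooth muscle; it read 7.48 and 7.67 with scrambled, 7.51 and 7.67 with luciferase, 9.88 and 9.95 with sh_37 and 8.33 and 8.27 with sh_38. Both hairpins raised it, but the sh_37 arrays stood far above the sh_38 arrays (sh_37 minus sh_38 1.61, limma adjusted p = 9.12e-05), and its call (log2 change 1.53, SE 0.32, limma adjusted p = 0.0218) was lost in 4 of the 8 fits without 1 array. CLSTN2, a calsyntenin of the cadherin family, read 7.83 and 7.87 with scrambled, 7.98 and 7.89 with luciferase, 9.39 and 9.12 with sh_37 and 8.49 and 8.68 with sh_38 and was called in every fit (log2 change 1.03, SE 0.16, limma adjusted p = 0.00546; sh_37 minus sh_38 0.67, limma adjusted p = 0.00498).

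The other genes of the 15 have varied functions. FSTL3, a secreted inhibitor of activin, read 8.66 and 8.82 with scrambled, 8.82 and 8.61 with luciferase, 9.99 and 9.96 with sh_37 and 9.35 and 9.55 with sh_38; it was called in every fit (log2 change 0.98, SE 0.14, limma adjusted p = 0.00482; sh_37 minus sh_38 0.53, limma adjusted p = 0.0234). MAP3K7CL read 8.22 and 8.20 with scrambled, 8.31 and 8.29 with luciferase, 9.12 and 8.95 with sh_37 and 9.01 and 8.93 with sh_38. Its controls and its H2AZ2 arrays each spanned a narrow range, the hairpins stood at 0.78 with sh_37 and 0.72 with sh_38, and it too was called in every fit (log2 change 0.75, SE 0.11, limma adjusted p = 0.00482). B3GALT1, a galactosyltransferase, changed by 0.88 and was called in every fit. TRIM22, an interferon-induced antiviral protein, changed by 0.93 and was called in 1 of the 8 fits. NAT2, an acetyltransferase of drug metabolism, stood at 1.94 with sh_37 and 0.70 with sh_38 (sh_37 minus sh_38 1.24, limma adjusted p = 0.000319) and was called in 4. CYP4F2, a cytochrome P450 enzyme, changed by 0.72 with nearly equal values for the hairpins (0.75 with sh_37 and 0.70 with sh_38). Of the 15, CPA4 (0.496), NEFL (0.61) and CCN3 (0.607) also rose with sh_83 (limma adjusted p = 0.0104, 0.0329 and 0.0218). These rises were thus not particular to the H2AZ2 hairpins. NAT2 was lower with sh_83 (-0.779, limma adjusted p = 0.0118), and the rest of the 15 did not pass with it.

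**Figure D2:**
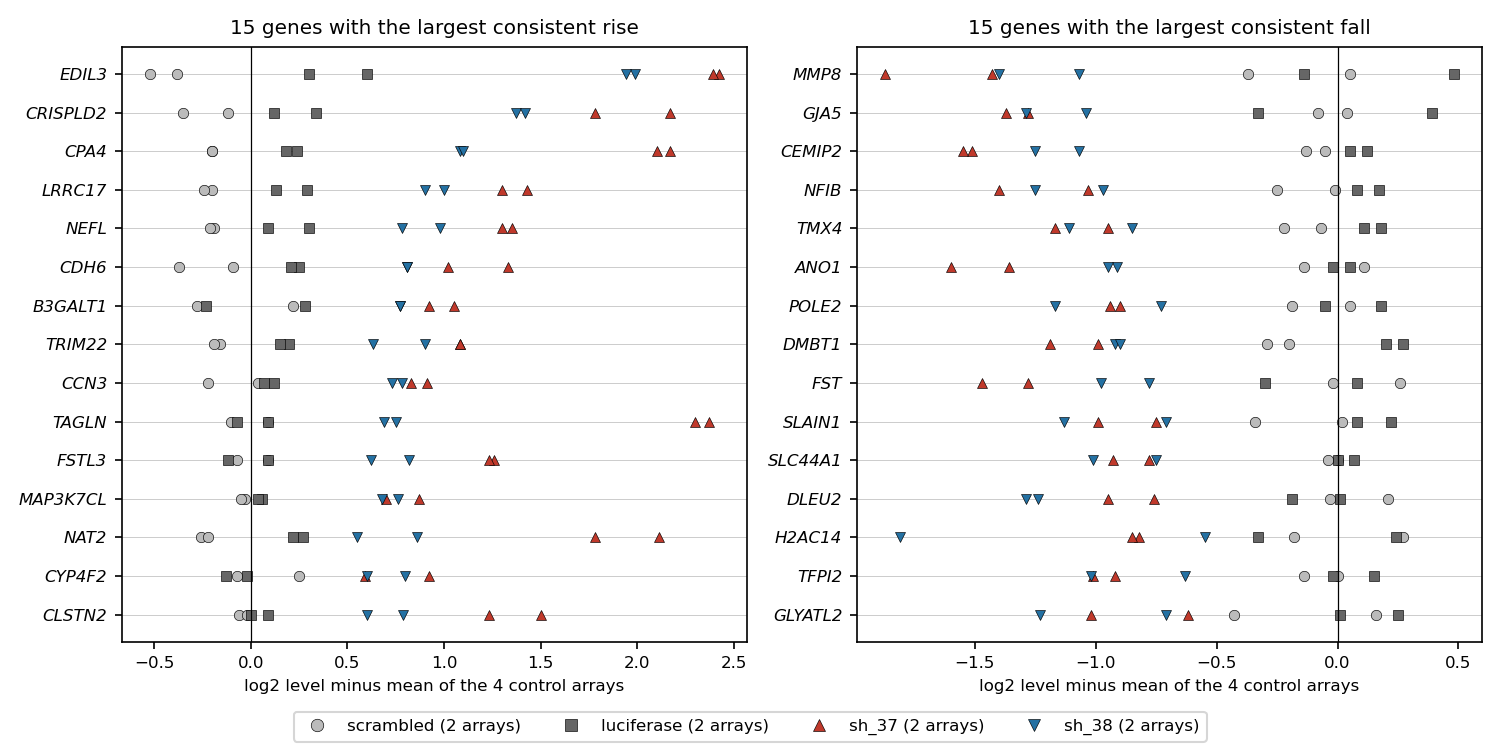
Each symbol is 1 array: its log2 level minus the mean of the 4 controls (horizontal axis) for the 15 genes with the largest consistent rise (left) and fall (right), ordered by that measure. In every row the sh_37 and sh_38 arrays lie to 1 side of the scrambled and luciferase arrays, and for TAGLN the sh_37 arrays lie far from the sh_38 arrays.

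The 15 largest consistent falls held a protease, a transcription factor and a replication gene. MMP8, a collagenase, read 7.08 and 6.66 with scrambled, 6.89 and 7.51 with luciferase, 5.60 and 5.16 with sh_37 and 5.96 and 5.63 with sh_38. The controls spread widely, and the highest H2AZ2 array was still below the lowest of them (log2 change -1.45, SE 0.21, limma adjusted p = 0.00482). CEMIP2, a hyaluronidase of the cell surface, read 10.71 and 10.63 with scrambled, 10.81 and 10.88 with luciferase, 9.25 and 9.21 with sh_37 and 9.69 and 9.51 with sh_38 and stood at 39.3% of control (log2 change -1.35, SE 0.16, limma adjusted p = 0.00265; sh_37 minus sh_38 -0.37, limma adjusted p = 0.0381). NFIB, a nuclear factor I transcription factor, read 10.33 and 10.09 with scrambled, 10.42 and 10.51 with luciferase, 9.31 and 8.94 with sh_37 and 9.37 and 9.09 with sh_38. The hairpins gave nearly the same value (-1.22 with sh_37 and -1.11 with sh_38), and its adjusted p was the same as for TMX4 and SLC44A1 (log2 change -1.17, SE 0.13, limma adjusted p = 0.0015). TMX4, a thioredoxin-like protein of the endoplasmic reticulum, read 9.65 and 9.80 with scrambled, 10.05 and 9.98 with luciferase, 8.92 and 8.70 with sh_37 and 9.02 and 8.76 with sh_38, so that it stood at 49.4% of control. SLC44A1, a choline transporter, read 10.45 and 10.49 with scrambled, 10.49 and 10.56 with luciferase, 9.71 and 9.56 with sh_37 and 9.74 and 9.48 with sh_38; its controls lay close together and the hairpins stood at -0.86 with sh_37 and -0.88 with sh_38. All 5 were called in every fit.

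ANO1, a calcium-activated chloride channel, read 9.02 and 8.77 with scrambled, 8.89 and 8.96 with luciferase, 7.55 and 7.31 with sh_37 and 8.0 and 7.96 with sh_38, with lower values for sh_37 (sh_37 minus sh_38 -0.55, limma adjusted p = 0.0179). TFPI2, a secreted protease inhibitor, changed by -0.89, with -0.96 with sh_37 and -0.82 with sh_38; both genes were called in every fit. SLAIN1, which binds microtubule ends, changed by -0.89, GLYATL2, an acyltransferase, by -0.90, DMBT1, a secreted scavenger receptor protein, by -1.0 and GJA5, a gap junction connexin, by -1.25. These 4 lost their call only without replicate 1 of scrambled. FST, an extracellular inhibitor of activin like FSTL3 above, went the other way: it read 9.21 and 8.93 with scrambled, 8.65 and 9.03 with luciferase, 7.67 and 7.48 with sh_37 and 8.17 and 7.97 with sh_38 (log2 change -1.13, SE 0.23, limma adjusted p = 0.0198) and was called in 5 of the 8 fits. H2AC14, a canonical histone H2A gene, read 6.95 and 6.50 with scrambled, 6.35 and 6.92 with luciferase, 5.86 and 5.83 with sh_37 and 6.13 and 4.87 with sh_38; 1 sh_38 array was far below the rest, and the call (log2 change -1.01, SE 0.25, limma adjusted p = 0.0438) was lost in 4 fits.

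The other genes called in every fit, besides those named so far and those of the groups below, were fewer among the rises. They included SERPINH1, a collagen chaperone (0.65), SPOCK1, a secreted proteoglycan (0.71), INPP5D, a lipid phosphatase (0.71), HDAC9, a class II histone deacetylase (0.60), GPER1, a membrane receptor for estrogen (0.52), and PNRC1, a nuclear receptor coregulator (0.49). Among the falls were PRDM1, a zinc finger repressor (-0.98), NLRP3, the inflammasome sensor (-0.72), TGM2, a transglutaminase that crosslinks proteins (-0.69), ZC3H12C (-0.76), the mitotic helicase-like protein ERCC6L (-0.81), ARSB, a lysosomal sulfatase (-0.64), and PRPS2, which makes the sugar phosphate for nucleotides (-0.63). All adjusted p-values of these 13 genes by limma were at or below 0.0076. They were named after their values were seen, because they kept their call.

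Many proliferation genes fell. Across 11 lists of replication, cell cycle, repair, chromatin assembly and histone genes, 101 of 236 measured genes fell and 1 rose, beside 2.43% and 0.842% of all genes, and 224 had a negative value. The counts given below for each of these lists are to be read beside the same shares. In the fit by hairpin 80 of the 236 fell with both hairpins. The 101 genes were 22.6% of all 447 falls; 346 falls lay outside these lists. The median change over the 236 genes was -0.40, beside 0.03 for all genes. It was -0.47 with sh_37, -0.33 with sh_38 and 0.02 for scrambled minus luciferase. Without replicate 1 of scrambled 15 of the 101 were still called, with a median over the 236 of -0.39, without replicate 2 of luciferase 44, and without replicate 1 or 2 of sh_37 65 and 61. In these bulk RNA samples fewer cycling cells and less RNA per cell cannot be told apart.

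Replication begins with licensing, in which the origin recognition complex, CDC6 and CDT1 load the MCM helicase. All 6 subunits of the MCM helicase core, MCM2 to MCM7, fell, with changes of -0.54 (MCM2), -0.39 (MCM3), -0.63 (MCM4), -0.49 (MCM5), -0.73 (MCM6) and -0.43 (MCM7). In this list 12 of 16 genes fell, with medians of -0.64 with sh_37 and -0.42 with sh_38 beside 0.03 between the controls. ORC1 and ORC6 fell, while the origin subunits ORC2 (-0.20), ORC3 (-0.05), ORC4 (-0.24) and ORC5 (-0.25) did not pass. ORC1 read 9.28 and 9.04 with scrambled, 9.11 and 9.20 with luciferase, 8.29 and 8.54 with sh_37 and 8.53 and 8.17 with sh_38. GMNN, the inhibitor of CDT1 that blocks relicensing, fell beside its target (-0.63 for GMNN and -0.52 for CDT1). MCM10, which activates the loaded helicase, read 10.06 and 9.81 with scrambled, 9.70 and 9.88 with luciferase, 9.17 and 9.24 with sh_37 and 9.21 and 9.07 with sh_38, with almost equal falls for the hairpins (-0.66 with sh_37 and -0.72 with sh_38). MCM4, MCM6, MCM10 and GMNN were called in every fit; 4 of the 12 genes stayed called without replicate 1 of scrambled and at least 10 without any other array.

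Of 32 genes of the replisome, the machine that copies DNA at the fork, 23 fell, with medians of -0.48 with sh_37 and -0.46 with sh_38 and 0.04 between the controls. POLE2, a subunit of the leading-strand polymerase, read 9.09 and 8.85 with scrambled, 8.99 and 9.22 with luciferase, 8.14 and 8.10 with sh_37 and 8.31 and 7.87 with sh_38 (log2 change -0.93, SE 0.14, limma adjusted p = 0.00482). Its highest H2AZ2 array lay well under its lowest control. All 4 subunits of GINS, which joins the helicase, fell: GINS1 by 0.64, GINS2 by 0.53, GINS3 by 0.37 and GINS4 by 0.44 on the log2 scale, as did CDC45 (-0.59). CLSPN, TIMELESS and TIPIN, which signal stalled forks, changed by -0.73, -0.56 and -0.65, and the latter 2 were called in every fit. PCNA, the sliding clamp, stood at -0.36 and did not pass (limma adjusted p = 0.0535); the catalytic subunits POLA1 (-0.46) and POLE (-0.49) did not pass either. Without replicate 1 of scrambled 3 of the 23 stayed called and without replicate 2 of luciferase 11. Of 16 genes that supply nucleotides 3 fell, RRM2, a subunit of ribonucleotide reductase (-0.54), and the folate enzymes MTHFD1 (-0.47) and SHMT1 (-0.41), and none of them stayed called without replicate 1 of scrambled.

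**Figure D3:**
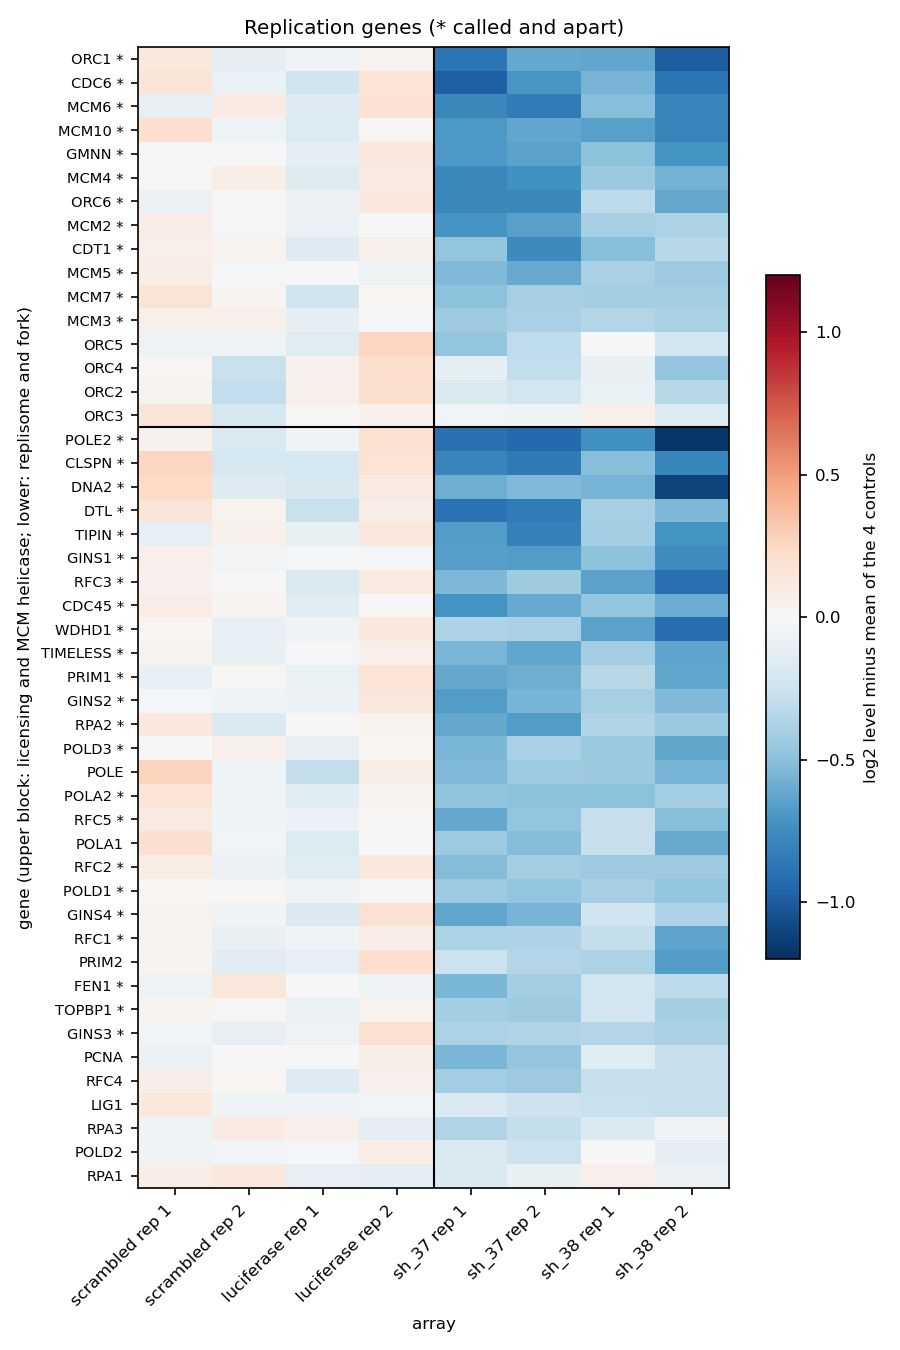
Colour gives the log2 level of each gene (rows) in each array (columns) minus the mean of the 4 controls; the upper block holds the 16 licensing and MCM genes, the lower the 32 replisome genes, and a star marks those that fell by the rule above. The 4 H2AZ2 columns are lower than the 4 control columns for most rows, and the rows without a star include ORC2 to ORC5 and PCNA.

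Some regulators of the cycle fell too. Of 17 genes of the E2F and RB family, the transcription factors that switch on S phase genes, 4 fell: E2F8, an atypical repressor E2F, RBL1, a pocket protein, LIN9 and MYBL2. E2F8 read 8.79 and 8.57 with scrambled, 8.36 and 8.68 with luciferase, 7.86 and 7.85 with sh_37 and 7.81 and 7.76 with sh_38 (log2 change -0.78, SE 0.19, limma adjusted p = 0.0415) and was called in 1 of the 8 fits without 1 array. Of 15 cyclins, kinases and CDC25 phosphatases 5 fell, and CDK1, the mitotic kinase, read 9.80 and 9.96 with scrambled, 9.89 and 10.13 with luciferase, 9.10 and 9.16 with sh_37 and 9.46 and 9.19 with sh_38; it was called in every fit (log2 change -0.72, SE 0.12, limma adjusted p = 0.00722). CDC25A, which activates these kinases, stood at -1.33 with sh_37 and -0.40 with sh_38 (sh_37 minus sh_38 -0.93, limma adjusted p = 0.00233). It did not pass with sh_38 alone (limma adjusted p = 0.0898). CCNE2, a cyclin of the G1/S transition, changed by -0.62. FOXM1, which drives mitotic genes, changed by -0.42 and was called in 1 of the 8 fits. With sh_38 alone it stood at -0.24 and did not pass (limma adjusted p = 0.168). Without replicate 1 of scrambled none of the 4 E2F and RB genes and 1 of the 5 cyclin and kinase genes stayed called; at most 1 of each group did without replicate 2 of luciferase or either array of sh_37.

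Of 39 genes of mitosis 15 fell, and all 39 had a negative value; the medians were -0.52 with sh_37 and -0.29 with sh_38, beside 0.02 between the controls. CENPU, a kinetochore protein, read 10.42 and 10.40 with scrambled, 10.23 and 10.56 with luciferase, 9.85 and 9.93 with sh_37 and 9.94 and 9.71 with sh_38 (log2 change -0.54, SE 0.10, limma adjusted p = 0.013). The spindle motor KIF15 changed by -0.63, the kinetochore motor CENPE by -0.68, and ANLN, the scaffold of the cleavage furrow, by -0.59; ANLN alone of the 15 was called in every fit, and 5 to 8 were called without either array of luciferase or sh_37 or without replicate 2 of sh_38. Of 16 condensin and cohesin genes 5 fell, among them NCAPG of condensin I, which read 10.48 and 10.52 with scrambled, 10.35 and 10.55 with luciferase, 9.72 and 9.87 with sh_37 and 9.94 and 9.87 with sh_38 and was called in every fit (log2 change -0.63, SE 0.10, limma adjusted p = 0.00592); 3 of the 5 were called without either array of luciferase or the second array of sh_37 or sh_38.

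DNA repair genes were among the falls. Of 24 genes of the Fanconi and homologous recombination pathways 11 fell, with medians of -0.50 with sh_37 and -0.38 with sh_38 and 0.02 between the controls. FANCE, of the Fanconi core complex, read 9.75 and 9.70 with scrambled, 9.54 and 9.57 with luciferase, 8.99 and 8.91 with sh_37 and 9.04 and 8.88 with sh_38, with equal falls for both hairpins (-0.69 with sh_37 and -0.68 with sh_38; log2 change -0.68, SE 0.10, limma adjusted p = 0.00482). EXO1, a nuclease that resects broken ends, read 9.65 and 9.71 with scrambled, 9.46 and 9.65 with luciferase, 8.77 and 8.98 with sh_37 and 9.0 and 8.93 with sh_38 (log2 change -0.70, SE 0.10, limma adjusted p = 0.00482). These were the 2 members still called without replicate 1 of scrambled, 3 were called without replicate 2 of luciferase, and 5 to 7 without either array of sh_37, replicate 2 of sh_38 or replicate 1 of luciferase. Of 13 mismatch and base excision genes 3 fell: UNG, which removes uracil from DNA (-1.11 with sh_37 and -0.47 with sh_38; sh_37 minus sh_38 -0.65, limma adjusted p = 0.00269), PARP1, a sensor of strand breaks (-0.48), and MSH6 (-0.47); none stayed called without replicate 1 of scrambled.

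Chromatin is rebuilt behind the fork by chaperones and new histones, and genes of both fell. Of 21 genes of chromatin assembly and maintenance 6 fell. CHAF1A and CHAF1B, subunits of chromatin assembly factor 1, changed by -0.53 and -0.59 and were called in every fit, the chaperones ASF1B and NASP by -0.60 and -0.48, UHRF1, which maintains DNA methylation, by -0.40, and EZH2, the methyltransferase of Polycomb, by -0.59. CHAF1B read 9.17 and 9.24 with scrambled, 9.10 and 9.31 with luciferase, 8.60 and 8.71 with sh_37 and 8.60 and 8.54 with sh_38. Of a list of 27 clustered histone genes, which does not hold every such gene on the array, 14 fell and 1, H2BC21, rose (0.99). H2BC21 did not pass with each hairpin in the fit by hairpin. The list medians were -0.51 with sh_37 and -0.44 with sh_38 beside -0.03 between the controls. H1-3, a linker histone, read 9.20 and 8.94 with scrambled, 9.20 and 9.13 with luciferase, 8.47 and 8.30 with sh_37 and 8.34 and 8.10 with sh_38 (log2 change -0.82, SE 0.13, limma adjusted p = 0.00593) and was the 1 of these 15 that stayed called without replicate 1 of scrambled; 6 did when replicate 2 of luciferase was dropped and 9 when replicate 1 was. H1-5 changed by -0.76 and H2AC4 by -0.76. H2AC14, described above, and H2BC6, which was called in every fit (-0.57, limma adjusted p = 0.00703), also fell and are not on the list. Clustered histone genes are near-identical to each other in sequence, so single histone values are uncertain. By the RefSeq table, assembly GRCh38.p14, 47 of 977 genes tested on chromosome 6 fell (4.81%, beside 2.43% overall), and 19 of the 47 were clustered histone genes, those outside the list included.

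Genes of H2A variants and of the complexes that place or read H2A.Z gave 1 fall among 20, which was H2AZ2 itself. The median of this list was -0.12. Of all genes, 2.43% fell and 0.842% rose, so few calls would be found in lists of this size at those shares. None of 5 genes of BET proteins and related bromodomain readers passed: BRD2, which binds chromatin that holds H2A.Z, read 10.75 and 10.75 with scrambled, 10.75 and 10.93 with luciferase, 10.75 and 10.59 with sh_37 and 10.69 and 10.66 with sh_38 (limma adjusted p = 0.448), and BRD7 stood at -0.21 (limma adjusted p = 0.174).

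Promoters of the genes that fell were then searched for motifs, because many of these genes are known E2F targets. RefSeq windows of 300 bases, 250 before to 50 after each start (GRCh38.p14), were matched for 14237 of the 18417 genes, 120 of the risen and 379 of the fallen. The E2F search used TTTCCCGC, TTTGGCGC, TTTCGCGC and TTTGCCGC on both strands. A match was present in 54 of the 379 fallen genes (14.2%), in 3 of the 120 risen genes (2.5%), in 4.5% of all genes tested and in 3.3% of all 27305 promoters of the table. It was present in 33% of the 91 fallen proliferation genes and in 8.3% of the 288 other fallen genes. The share in proliferation genes that did not fall was not counted. The shares in fallen proliferation genes, here and for the motifs below, therefore cannot tell the fall from membership of these lists. The sets of promoters, here and for the motifs below, were also not matched for level. Median control levels were 9.36 for the 447 fallen, 8.36 for the 155 risen and 7.69 for all genes. Of the 54 fallen genes with an E2F match, 43 had the match within 100 bases of the start. The 8 windows of 60 bases below belong to fallen genes with a match and a large consistent change, and none reaches over 30 bases past the start; capitals mark the E2F match, read on the strand of the gene. In MCM6 a further searched form, GCGCGAAA (TTTCGCGC on the other strand), overlaps the marked match and is only partly in capitals.
POLE2: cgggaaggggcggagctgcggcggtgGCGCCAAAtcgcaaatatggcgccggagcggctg
SLAIN1: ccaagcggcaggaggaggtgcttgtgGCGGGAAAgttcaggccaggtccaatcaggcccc
H2AC14: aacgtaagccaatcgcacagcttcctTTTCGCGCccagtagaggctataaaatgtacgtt
CDCA7: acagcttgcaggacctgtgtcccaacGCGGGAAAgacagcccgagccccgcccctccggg
CEP57: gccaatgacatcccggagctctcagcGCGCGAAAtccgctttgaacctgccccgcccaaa
SYNE2: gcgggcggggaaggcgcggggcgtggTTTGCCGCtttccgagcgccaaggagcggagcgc
UBR7: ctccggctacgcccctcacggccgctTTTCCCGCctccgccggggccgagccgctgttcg
MCM6: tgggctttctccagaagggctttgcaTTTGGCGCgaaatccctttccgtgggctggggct

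In the order shown, the windows lie at chr14:49688186-49688245 (-), chr13:77697449-77697508 (+), chr6:27814794-27814853 (-), chr2:173354781-173354840 (+), chr11:95789908-95789967 (+), chr14:63852940-63852999 (+), chr14:93207218-93207277 (+) and chr2:135876562-135876621 (-) of GRCh38.p14. They belong to genes of different function: POLE2 and MCM6 copy DNA, H2AC14 is a histone, CDCA7 recruits the HELLS remodeller, CEP57 is a centrosome protein, SYNE2 links the nucleus to the cytoskeleton, SLAIN1 binds microtubule ends and UBR7 is a ubiquitin ligase. Their consistent changes ran from -0.91 for POLE2 to -0.65 for MCM6. The letters of the CHR element, TTTGAA, were present in 17.9% of fallen, 7.5% of risen and 11.9% of all genes tested, and in 25.3% of the fallen proliferation genes. The CCAAT box was present in 47.2%, 40.8% and 36.3%, and in 61.5% of the fallen proliferation genes; NFYA, a subunit of the factor that binds it, changed by -0.33 (limma adjusted p = 0.0398) and was called in 2 of the 8 fits. The AP-1 letters TGAGTCA, which read TGACTCA on the other strand, were present in 0.8%, 4.2% and 3.6%. In all promoters of the table these shares were 15.4% for CHR, 35.7% for CCAAT and 4.9% for AP-1. The median GC content was 65.3% in fallen, 64.7% in risen and 63% in all genes. A match shows that the letters are there and nothing about binding.

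**Figure D4:**
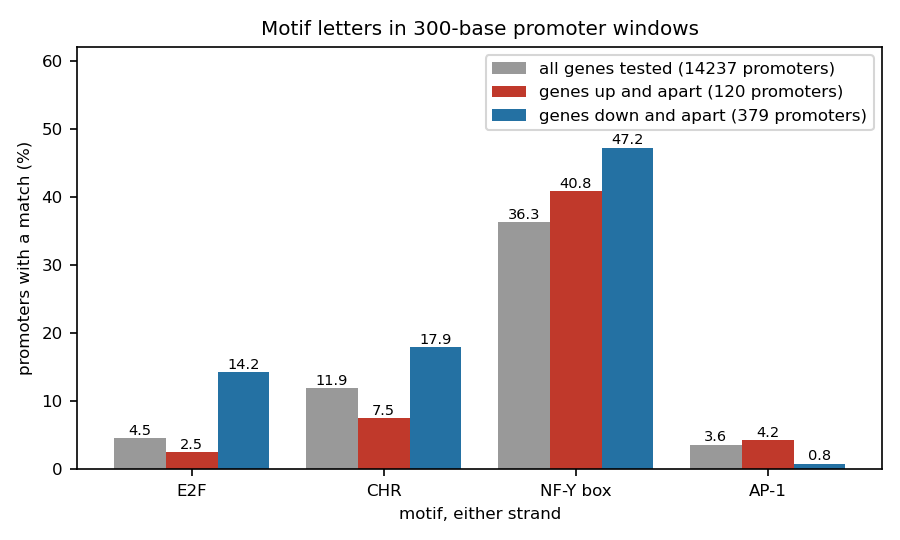
Bars give the percentage of 300-base promoter windows with a match on either strand (vertical axis) for 4 motifs (horizontal axis), in all genes tested, risen genes and fallen genes; the NF-Y box is the CCAAT motif of the text. E2F matches stand at 4.5%, 2.5% and 14.2%.

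A noncoding transcript among the largest falls spans microRNA genes. DLEU2 read 8.92 and 8.68 with scrambled, 8.52 and 8.72 with luciferase, 7.95 and 7.76 with sh_37 and 7.47 and 7.42 with sh_38, with the sh_38 arrays lowest, and was called in every fit (log2 change -1.06, SE 0.14, limma adjusted p = 0.00413). By RefSeq it spans MIR15A and MIR16-1, and SMC4, a condensin subunit that also fell (-0.41, limma adjusted p = 0.0427, called in 2 of the 8 fits), spans the related MIR15B and MIR16-2. The mature forms from RefSeq are shown because they share a seed, bases 2 to 8, in capitals.
hsa-miR-15a-5p: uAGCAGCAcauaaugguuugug
hsa-miR-15b-5p: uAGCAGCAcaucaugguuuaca
hsa-miR-16-5p: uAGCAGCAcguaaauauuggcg

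The mature miR-15a-5p lies at chr13:50049167-50049188 (-) and miR-15b-5p at chr3:160404607-160404628 (+); miR-16-5p is made from both loci, at chr13:50049027-50049048 (-) and chr3:160404754-160404775 (+), all in GRCh38.p14. The array has probe sets for the 4 miRNA genes, and none passed. MIR15A read 6.96 and 6.55 with scrambled, 6.24 and 6.82 with luciferase, 6.12 and 6.11 with sh_37 and 6.11 and 6.13 with sh_38; its H2AZ2 arrays lay below the controls (log2 change -0.53, SE 0.21, limma adjusted p = 0.201). MIR15B stood at -0.74 (limma adjusted p = 0.245), MIR16-1 at -0.09 and MIR16-2 at -0.12 (limma adjusted p = 0.613 and 0.706). The control means of MIR16-1 (3.87) and MIR16-2 (3.92) were near the bottom of the scale, so a fall may not show there. Levels of the mature forms were not assessed. SMC4 and the miRNA genes were chosen after the values were seen.

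Target genes of p53, the stress-activated transcription factor, rose in some cases. Of 24 measured, 6 rose and 0 fell, beside 0.842% and 2.43% of all genes, and 23 had a positive value. The medians were 0.34 with sh_37 and 0.51 with sh_38. Between the controls the same genes had a median of -0.18, scrambled minus luciferase. CDKN1A, the kinase inhibitor p21, read 9.76 and 9.86 with scrambled, 10.11 and 9.94 with luciferase, 10.65 and 10.51 with sh_37 and 10.43 and 10.43 with sh_38 (log2 change 0.59, SE 0.12, limma adjusted p = 0.0185). SESN1, a sestrin, read 7.05 and 6.92 with scrambled, 7.46 and 7.49 with luciferase, 7.99 and 7.71 with sh_37 and 8.50 and 8.11 with sh_38; it was highest with sh_38 (0.62 with sh_37 and 1.07 with sh_38), and the luciferase arrays were above the scrambled ones. MDM2, which degrades p53, changed by 0.53, the death receptor FAS by 0.67, the apoptosis effector BAX by 0.48 and RRM2B, a ribonucleotide reductase subunit, by 0.53. None of the 6 stayed called without replicate 1 of scrambled, and 3 to 5 did without each other array. CDKN1A was the 1 of 6 kinase inhibitor genes that rose. Of 12 BCL2 family genes, which set the threshold of cell death, BCL2 fell (-0.61, sh_37 minus sh_38 -0.48, limma adjusted p = 0.0285) and was called in 3 of the 8 fits. It did not pass with sh_38 alone (limma adjusted p = 0.063).

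Transcripts that report MAPK signalling, the growth pathway commonly active in melanoma, fell in 7 of 19 cases, beside 2.43% of all genes. The list medians were -0.41 with sh_37 and -0.18 with sh_38 and -0.01 between the controls. The 7 were the ETS factors ETV1, ETV4 and ETV5, the feedback inhibitors SPRY4 and SPRED1, and the phosphatases DUSP4 and DUSP5. ETV4 read 9.20 and 8.93 with scrambled, 9.03 and 9.10 with luciferase, 7.73 and 7.56 with sh_37 and 8.51 and 8.18 with sh_38 (log2 change -1.07, SE 0.19, limma adjusted p = 0.0113), and the fall was larger with sh_37 (sh_37 minus sh_38 -0.70, limma adjusted p = 0.014). ETV1 differed likewise (-1.91 with sh_37 and -0.75 with sh_38; sh_37 minus sh_38 -1.16, limma adjusted p = 0.00117). DUSP5 read 9.47 and 9.60 with scrambled, 9.26 and 9.26 with luciferase, 8.20 and 8.70 with sh_37 and 8.83 and 8.72 with sh_38 and differed less between hairpins (-0.95 with sh_37 and -0.62 with sh_38). DUSP4 (-0.59) was the member called in every fit and the only 1 of the 7 still called without replicate 1 of scrambled; 5 to 7 were called without each other array.

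Secreted inflammatory factors fell in 5 of 20 cases, beside 2.43% of all genes. IL24, a cytokine of the interleukin 10 family, read 11.80 and 11.70 with scrambled, 11.61 and 11.78 with luciferase, 10.02 and 9.88 with sh_37 and 10.94 and 10.89 with sh_38 (log2 change -1.29, SE 0.21, limma adjusted p = 0.00661), with the larger fall for sh_37 (sh_37 minus sh_38 -0.96, limma adjusted p = 0.000235). IL6 read 10.43 and 10.39 with scrambled, 10.78 and 10.89 with luciferase, 9.97 and 9.81 with sh_37 and 9.50 and 9.32 with sh_38 (log2 change -0.97, SE 0.15, limma adjusted p = 0.00565) and had its larger fall with sh_38 (sh_37 minus sh_38 0.48, limma adjusted p = 0.0191), so these cytokines ranked the hairpins in opposite order. CXCL8, a neutrophil chemokine, read 10.46 and 10.40 with scrambled, 10.68 and 10.0 with luciferase, 9.73 and 9.54 with sh_37 and 9.73 and 9.48 with sh_38, CXCL1 changed by -1.02 and the hormone STC1 by -0.73. IL24 and IL6 were called in every fit; the other 3 were lost without replicate 1 of scrambled, and 3 of the 5 were called without replicate 2 of sh_37 or replicate 1 of luciferase. The list median was -0.27, beside -0.09 between the controls.

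Several extracellular matrix genes rose. Of 32 collagen and matrix genes 5 rose and 0 fell, beside 0.842% and 2.43% of all genes. A positive value was found for 29, and the medians were 0.26 with sh_37 and 0.11 with sh_38, beside -0.07 between the controls. Fibroblast markers moved with this list: 11 of 12 had a positive value and none passed, with a median of 0.21, and their mean level ran from 5.84 to 6.04 in the controls and 6.05 to 6.21 with H2AZ2 hairpins; their part in the matrix result was not tested. COL4A1, a chain of basement membrane collagen, read 7.79 and 7.81 with scrambled, 8.01 and 7.77 with luciferase, 9.04 and 9.01 with sh_37 and 8.46 and 8.49 with sh_38 and was called in every fit (log2 change 0.91, SE 0.13, limma adjusted p = 0.00482; sh_37 minus sh_38 0.55, limma adjusted p = 0.00535). COL4A2 changed by 0.42, COL5A1 by 0.57 and P4HA2, a collagen hydroxylase, by 0.56; EDIL3, also on this list, is described above. Only COL4A1 and EDIL3 stayed called without replicate 1 of scrambled, and 2 or 3 of the 5 without every other array but replicate 1 of sh_38. Of 23 metalloproteinases and inhibitors, MMP8 and TIMP3 fell and ADAMTS12 rose. TIMP3, a matrix-bound protease inhibitor, read 9.93 and 10.05 with scrambled, 10.08 and 10.04 with luciferase, 9.31 and 9.18 with sh_37 and 9.52 and 9.40 with sh_38 and was called in every fit (log2 change -0.67, SE 0.09, limma adjusted p = 0.00474). ADAMTS12 read 8.14 and 7.97 with scrambled, 8.26 and 8.16 with luciferase, 8.60 and 8.48 with sh_37 and 8.59 and 8.59 with sh_38 (log2 change 0.43, SE 0.08, limma adjusted p = 0.0118).

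Of 16 contractile and SRF target genes 3 rose, TAGLN, MYLK, the myosin light chain kinase, and CNN2, a calponin. Beside the counts of this paragraph, 0.842% of all genes rose and 2.43% fell. MYLK read 8.74 and 8.62 with scrambled, 8.92 and 8.87 with luciferase, 9.84 and 9.82 with sh_37 and 9.39 and 9.34 with sh_38 (log2 change 0.81, SE 0.16, limma adjusted p = 0.0151; sh_37 minus sh_38 0.47, limma adjusted p = 0.0213), and CNN2 changed by 0.40; none of the 3 stayed called without replicate 1 of scrambled. Of 26 genes of the TGF-beta and activin pathway, FSTL3 rose and FST fell, as given above. Among 14 integrins ITGAV rose by 0.39 and ITGA6 fell by 0.57 (sh_37 minus sh_38 -0.57, limma adjusted p = 0.0072), and neither was called without replicate 1 of scrambled. Neither passed with sh_38 alone (limma adjusted p = 0.122 for ITGAV and 0.0992 for ITGA6). Of 26 Wnt pathway genes the receptor FZD8 (-1.25 with sh_37 and -0.41 with sh_38; sh_37 minus sh_38 -0.84, limma adjusted p = 0.00147) and the transcription factor TCF7L2 (-0.46) fell, each called in 2 of the 8 fits.

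Lineage genes were mostly unmoved by the test. The shares of all genes to set beside these counts are 0.842% risen and 2.43% fallen. Of 20 melanocyte lineage genes PAX3 and RAB38, which serves melanosome traffic, fell. PAX3 read 8.83 and 8.49 with scrambled, 8.72 and 8.92 with luciferase, 8.41 and 8.26 with sh_37 and 8.26 and 8.07 with sh_38 (log2 change -0.49, SE 0.11, limma adjusted p = 0.0265), called in 3 of the 8 fits; RAB38 changed by -0.50. Among 13 nuclear factor I and neural crest factors NFIB, TFAP2C and PRRX1 fell. TFAP2C, an AP-2 factor, read 10.67 and 10.63 with scrambled, 10.60 and 10.77 with luciferase, 9.65 and 9.65 with sh_37 and 10.23 and 10.01 with sh_38 and was called in every fit (log2 change -0.78, SE 0.13, limma adjusted p = 0.00703; sh_37 minus sh_38 -0.47, limma adjusted p = 0.0163). PRRX1 changed by -0.41. None of 20 genes of the dedifferentiated melanoma state passed; the growth factor receptor IGF1R stood at 0.35 with its arrays apart (limma adjusted p = 0.057). Of 13 antigen presentation genes 3 of class II fell, HLA-DQA1 (-0.68), HLA-DMB (-0.69) and HLA-DPB1 (-0.52), but the list also stood at -0.28 between the controls, scrambled minus luciferase. The same 3 genes, in this order, stood at -0.761, -0.475 and -0.604 in the arrays labelled sh_84 and at -0.965, -0.399 and -0.549 with sh_83. Their lower level was thus not particular to the H2AZ2 hairpins. Of 32 interferon genes TRIM22 rose.

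Metabolic and stress lists held few calls, to be read beside 0.842% of all genes that rose and 2.43% that fell. Of 24 genes of the unfolded protein and ATF4 responses 4 fell, all of amino acid supply: the cystine transporter SLC7A11, the serine synthesis enzyme PSAT1, the transporter SLC7A5 and asparagine synthetase ASNS. PSAT1 read 10.55 and 10.50 with scrambled, 10.51 and 10.48 with luciferase, 9.77 and 9.90 with sh_37 and 10.10 and 10.10 with sh_38 (log2 change -0.54, SE 0.09, limma adjusted p = 0.00681). SLC7A11 changed by -0.70, ASNS by -0.45 and SLC7A5 stood at -1.20 with sh_37 and -0.38 with sh_38 (sh_37 minus sh_38 -0.81, limma adjusted p = 0.000317). HMGCS1, of cholesterol synthesis, rose (0.66, sh_37 minus sh_38 0.49, limma adjusted p = 0.0181) as 1 of 15. The lysosomal enzyme HEXA rose (0.36) as 1 of 19 but did not pass with sh_38 alone (limma adjusted p = 0.0819). VEGFA fell (-0.43) as 1 of 21 glycolysis and hypoxia genes but did not pass with sh_37 alone (limma adjusted p = 0.0574). None of these 7 stayed called without replicate 1 of scrambled. The reference genes HPRT1 (-0.44) and GUSB (-0.52), often used to normalise expression, fell as 2 of 13 such genes, likewise not without replicate 1 of scrambled.

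Of the 49 lists, 16 had no gene that passed with its arrays apart, beside 0.842% of all genes that rose and 2.43% that fell. Among them were 24 genes of MYC and ribosome biogenesis (median -0.13), 19 ribosomal proteins (0), 21 splicing factors (-0.13), 18 proteasome subunits (-0.11), 19 oxidative phosphorylation genes, 13 YAP/TEAD targets and 13 Notch genes. RPL5 read 13.10 and 12.95 with scrambled, 13.01 and 13.15 with luciferase, 13.10 and 13.16 with sh_37 and 13.16 and 13.11 with sh_38. Markers of other cells that could be present had no call: 11 keratinocyte, 12 fibroblast, 10 endothelial and 11 leukocyte genes. Their mean level per array ran from 6.28 to 6.55 in the controls and 6.35 to 6.61 with H2AZ2 hairpins for keratinocytes, from 5.93 to 6.25 and 6.16 to 6.34 for endothelium, and from 5.60 to 5.79 and 5.56 to 5.85 for leukocytes. These ranges overlapped. The fibroblast list, given beside the matrix genes, also stood at 0.11 between the controls, scrambled minus luciferase. Within it LUM stood at 1.27 with sh_37 and 0.38 with sh_38; it passed with each in the fit by hairpin (limma adjusted p = 1.18e-05 and 0.0374) but not in the test over both (limma adjusted p = 0.182), and its arrays overlapped the controls. Also on this list, COL1A1 stood at 0.50 (limma adjusted p = 0.0561). The part of such cells in the result was not tested.

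**Figure D5:**
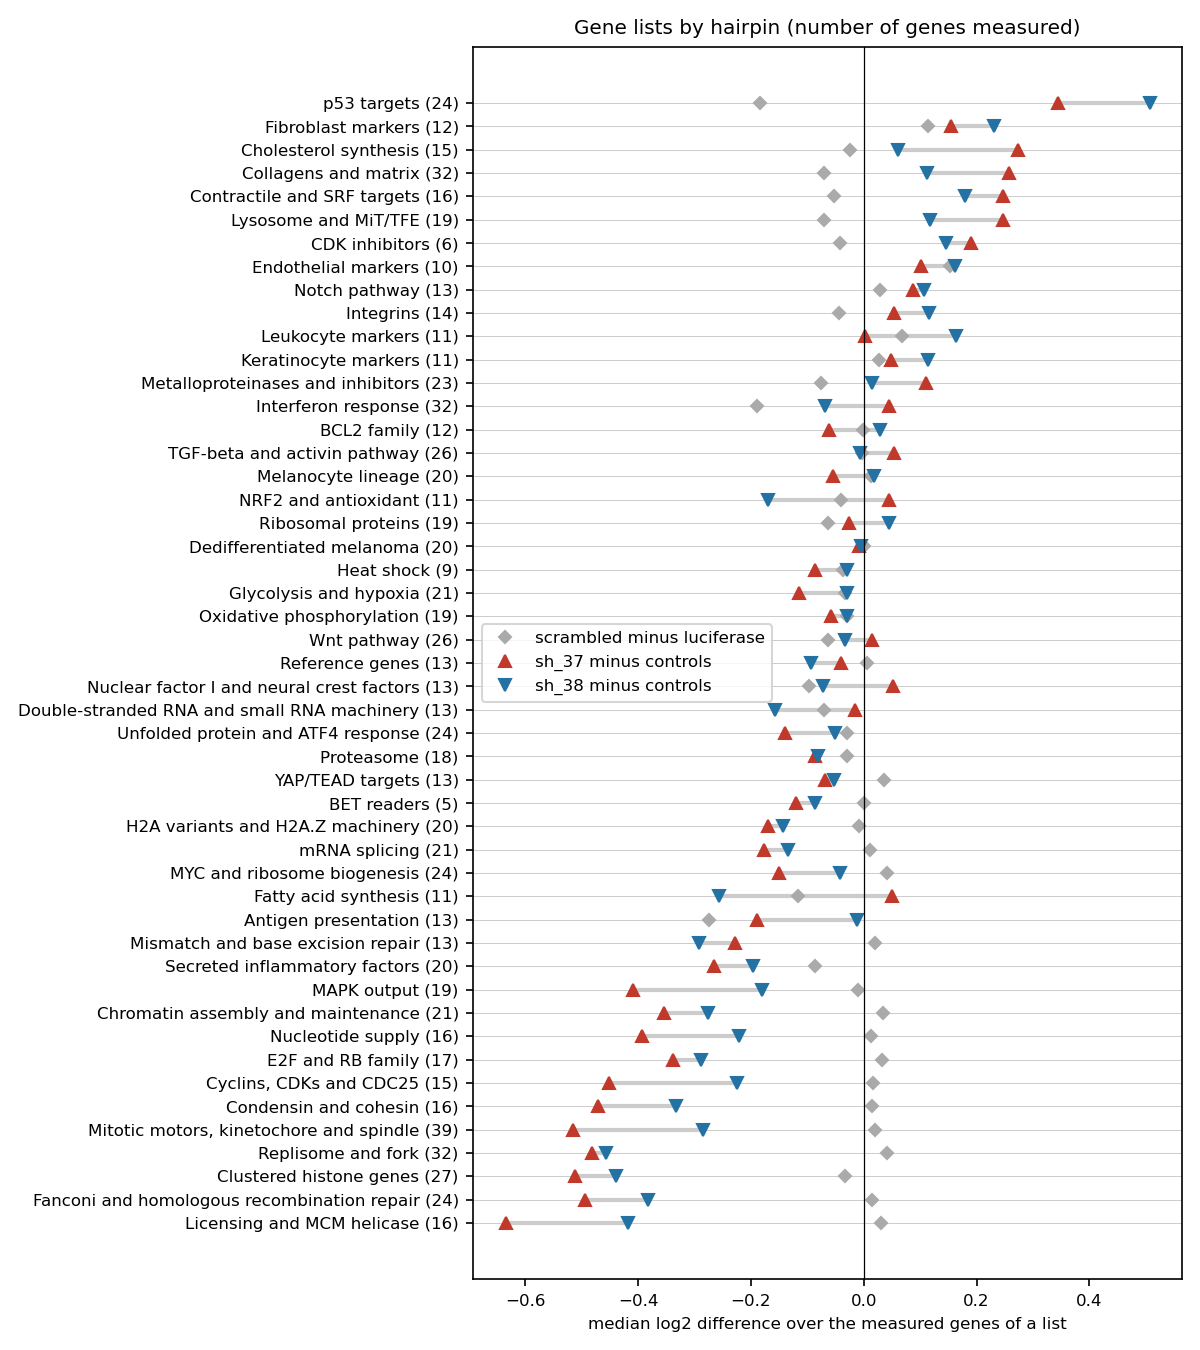
For each list (rows, with the number of genes measured) symbols give the median log2 difference from the controls with sh_37 and with sh_38 and, as background, that of scrambled minus luciferase (horizontal axis). The licensing list stands at -0.64 and -0.42, and p53 targets lie highest at 0.34 and 0.51, while their background stands at -0.18.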

How the data were processed

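Log2 expression values per probe set were used as deposited by the authors; per the submitters' processing notes RMA produced them, with a version not given in the sources used here, like any filter. RMA puts all arrays on a shared quantile scale, so a change common to all genes cannot be seen. The platform annotation gave 1 symbol for 19460 of 33297 probe sets, several for 1754 and did not list 12083; 19429 matched the RefSeq table by Entrez ID. The brightest probe set was kept for 769 genes with several, which gave 18417 genes. The number of arrays limits the precision, and signal over background was not analysed.

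Tests used limma 3.58.1 in R 4.3.3 with 3 targets over 12 arrays, the hairpin as a random block (duplicateCorrelation, 0.157), eBayes moderation, and a threshold of 0.05 on p-values adjusted across the genes by Benjamini and Hochberg. Single hairpins were tested in a fit with 6 groups of 2 arrays. The title of replicate 2 of sh_84 was followed where its RNAi characteristic names another hairpin. That array enters the shared spread and the sh_84 values. Titles speak of siRNA, and the protocol's hairpins are followed.

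Named genes were H2AZ2 and H2AZ1, the 15 largest consistent changes each way, and up to 3 genes per list that passed with arrays apart, or up to 2 where none did; members of a list beyond these, the genes that kept their call in every fit, DLEU2's miRNAs, SMC4, NFYA and FOXM1 were named after their values were seen. The hairpin comparison and all 49 lists were chosen with earlier results of these data known. The scripts were tested on simulated data. In all, 22 alternatives were run, 20 planned and 2 chosen after seeing the data.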

Additional observations from a re-analysis of the deposited data

Results flagged for a closer look

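Among 137 named genes, 25 differed between the H2AZ2 hairpins by a direct limma test, given here as sh_37 minus sh_38 on the log2 scale. Over all 18417 genes this test called 749 (4.07%) higher and 406 (2.2%) lower with sh_37. Many of the named genes were chosen for their changes, so their count does not compare directly with these shares. The targeted H2AZ2 itself differed by -0.503. Of the genes that rose, the difference was 0.585 for CRISPLD2, 1.049 for CPA4, 1.614 for TAGLN, 0.527 for FSTL3, 1.236 for NAT2, 0.673 for CLSTN2, 0.49 for HMGCS1, 0.47 for MYLK and 0.551 for COL4A1, so sh_37 gave the larger rise in these 9. Of the genes that fell, it was -0.369 for CEMIP2, -0.552 for ANO1, -0.931 for CDC25A, -0.648 for UNG, -0.484 for BCL2, -1.16 for ETV1, -0.703 for ETV4, -0.812 for SLC7A5, -0.571 for ITGA6, -0.842 for FZD8, -0.964 for IL24 and -0.471 for TFAP2C, again larger with sh_37. IL6 went the other way, at 0.479, with the larger fall for sh_38. LUM (0.888) and LYZ (-0.684) also differed between the hairpins; neither passed in the test over both, while LUM passed with each in the fit by hairpin.

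A single array stood apart from the other 3 of its target in 11 of 274 groups of 4, by the gap to its neighbour as a share of the range; chance gives about 1 in 20 groups. Among the H2AZ2 arrays these were replicate 1 of sh_37 for H2AZ1 (0.874), replicate 1 of sh_38 for EZH2 (0.867), replicate 2 of sh_38 for KRT15 (0.896), and replicate 2 of sh_37 for ANKRD1 (0.838), ADAMTS12 (0.917), HLA-DQA1 (0.883) and HLA-DMB (0.87). Among the controls they were replicate 2 of luciferase for BRD2 (0.962) and replicate 1 of luciferase for DKC1 (0.839), ANKRD1 (0.854) and COL4A1 (0.845).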

How the results depend on the processing

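H2AZ2 stayed lower in all 22 alternatives, between -0.94 and -0.77 when 1 array was left out, and passed in 21; without the luciferase hairpin it was -0.828. Counts moved more. Genes called up and down numbered 270 and 687 with no hairpin block, 5 and 38 without the scrambled hairpin, 7 and 7 without luciferase, 99 up without sh_37, and 709 and 972 without sh_38. With arrays apart they were 246 up with no hairpin block, 5 and 38 without scrambled, and 7 and 7 without luciferase. The small nucleolar RNA level as a covariate gave 213 called down, 102 up and 213 down with arrays apart, and 199 down with both hairpins. Genes up and down with both hairpins in the fit by hairpin were 60 and 124 from the 8 arrays alone, 49 and 94 without the second arrays of scrambled and sh_38, 202 up after quantile normalization, 74 up without scrambled and 149 down without luciferase. The covariate and the pair of second arrays were chosen after the data were seen. With 1 array left out, called genes ran from 18 to 237 up and 48 to 610 down, those with arrays apart from 18 to 234 and 48 to 608, and those with both hairpins from 38 to 157 and 39 to 469. With the replicate number as a block, 112 rose and 333 fell, 109 and 328 with arrays apart, and 164 and 395 with both hairpins. Deviations of same-numbered arrays correlated between -0.47 and 0.68 over 15 pairs of hairpins, with a median of 0.15 and 6 pairs not over 0.1. The numbers thus do not pair all samples, and whether some hairpins shared a batch was not tested. Over named genes and alternatives, 2407 values kept direction and side of the threshold, 553 lost and 20 gained the call, and 2 without a call changed sign with the covariate, H2AZ1 (0.031) and MIR16-2 (0.015). The cause was not tested.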
